A study of Homo sapiens with 6 samples.

Results

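The genes described here are 10 regulators of the G1 phase of the cell cycle in MRC5 cells, a human foetal lung fibroblast line: the D-type cyclins *CCND1*, *CCND2* and *CCND3*, the CIP/KIP inhibitors *CDKN1A*, *CDKN1B* and *CDKN1C*, the INK4 inhibitors *CDKN2A* and *CDKN2C*, and the pocket proteins *RB1* and *RBL2*. They were picked by name, and their rows in the deposited count table were found by matching its gene identifiers to GENCODE symbols. They are 10 of 58676 gene identifiers in the table, and all 10 were among the 19072 genes tested, those whose counts in the 6 libraries added up to at least 10.

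The study asked how lung fibroblasts respond to conditioned media (CM) from alveolar epithelial type II (ATII) cells in which RAS is active. The CM came from ATII ER:KRASV12 cells, a human ATII line in which 4-hydroxytamoxifen (4-OHT) switches on RAS. MRC5 cells were kept for 24 h in CM of untreated ATII ER:KRASV12 cells (control ATII CM, 3 libraries) or in CM of cells that had received 4-OHT (4-OHT ATII CM, 3 libraries), and polyA RNA was sequenced. Both groups therefore received CM of the same epithelial line, and no library of MRC5 cells without CM was analysed here. Both the source and the responding cells are single lines, and 4-OHT that stayed in the collected CM cannot be told apart from what the RAS-activated cells released. The labels do not say that the 3 libraries of a group came from separate cultures, so p values measure the spread between these samples, which may be technical.

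Cells leave G1 when D-type cyclins, bound to CDK4 or CDK6, begin to phosphorylate the retinoblastoma (RB) protein and its relatives p107 and p130, the pocket proteins, which hold E2F transcription factors in check. Growth factors that act through RAS and ERK raise cyclin D1, while INK4 proteins block CDK4 and CDK6 and CIP/KIP proteins block cyclin E and cyclin A complexes with CDK2. In resting fibroblasts p27 and p130 are abundant, and p130 with E2F4 and the MuvB proteins forms the DREAM complex, which represses genes of S phase and mitosis.

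Of the 10 genes, 1 was lower and 2 were higher in 4-OHT ATII CM. *CCND1* fell by 9.99%, *CDKN1B*, which encodes p27, rose by 12.6%, and *RBL2*, which encodes p130, rose by 10.7%. The other 7 genes did not pass the threshold, an adjusted p of 0.05 in edgeR's quasi-likelihood test over all genes tested. Among all genes tested, 2.95% were called higher and 2.76% lower. The libraries of the 2 groups did not overlap for 5 of the 10 genes, which were the 3 just named together with *CDKN2A* and *CDKN2C*, both lower in 4-OHT ATII CM, beside 22.1% of all genes tested. The median log2 fold change was 0.0074 over the 10 genes and -0.0021 over all genes tested, with 5 of the 10 on either side of 0. The call for *CCND1* was the only one of the 3 that remained under all 16 alternative settings. The direction of *CCND1*, *CDKN1B* and *RBL2* was the same under all 16.

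Promoter sequences are shown for the pair of genes that rose together, *CDKN1B* and *RBL2*, to let their upstream sequence be read beside their change. RefSeq windows (GRCh38.p14) were found for 7 of the 10 genes, with 13 start sites, and not for *CCND1*, *CCND2* and *CDKN1C*. The 250 bases before each start were searched on both strands for the CCAAT box (CCAAT), the GC box (GGGCGG) and the E2F core (TTCCCGC or TTCGCGC or TTGCCGC or TTGGCGC). Capitals mark matches, and each sequence ends at the base before its start site, on the plus strand in all cases. Of the window at the first *RBL2* start the last 194 bases are shown.
CDKN1B, chr12:12717118-12717367: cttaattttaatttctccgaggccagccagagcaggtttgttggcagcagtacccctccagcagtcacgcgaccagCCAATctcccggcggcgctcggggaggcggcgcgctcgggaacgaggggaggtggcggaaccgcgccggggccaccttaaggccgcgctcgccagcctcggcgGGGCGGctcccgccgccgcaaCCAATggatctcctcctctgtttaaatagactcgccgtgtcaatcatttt
RBL2 first start, chr16:53434277-53434470: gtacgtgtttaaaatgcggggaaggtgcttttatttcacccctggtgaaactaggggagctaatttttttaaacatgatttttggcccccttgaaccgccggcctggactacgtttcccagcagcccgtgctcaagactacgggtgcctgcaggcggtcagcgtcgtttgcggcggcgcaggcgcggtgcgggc
RBL2 second start, chr16:53435369-53435618: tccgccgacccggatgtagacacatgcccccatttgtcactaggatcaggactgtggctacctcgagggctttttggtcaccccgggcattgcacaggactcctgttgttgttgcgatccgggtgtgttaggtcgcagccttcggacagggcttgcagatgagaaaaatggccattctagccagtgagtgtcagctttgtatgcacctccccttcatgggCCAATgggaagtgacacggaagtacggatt

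The *CDKN1B* window held 2 CCAAT boxes, whose first bases lie 174 and 50 bases before the start, and 1 GC box 71 bases before it. The second *RBL2* start had 1 CCAAT box, 30 bases before it, and the first *RBL2* start had no match. CCAAT boxes were found in 32.0%, GC boxes in 42.6% and E2F cores in 10.9% of all 35116 windows. The E2F core was found in 1 of the 13 windows of these genes, that of the second *CDKN2C* start, which held 2. The only *RB1* window, chr13:48476200-48476449, lies inside the gene, which begins at 48303726. The sequence before that first base of *RB1* was not searched. A match describes letters in the sequence and was not tested as a binding site.

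Cyclin D1 is the partner through which CDK4 and CDK6 respond to mitogens in fibroblasts. *CCND1* (ENSG00000110092, chromosome 11, 69641087 to 69654474, GRCh38) was measured at 828, 852 and 844 CPM (a gene's counts relative to the TMM-scaled total of its library) in control ATII CM and at 757, 752 and 762 CPM in 4-OHT ATII CM. The highest value in 4-OHT ATII CM lay below the lowest in control ATII CM. The group means were 841 ± 12.3 and 757 ± 5.14 CPM (SD, n = 3), and the log2 fold change in edgeR was -0.15 (standard error 0.0275, 95% interval -0.21 to -0.093, adjusted p = 0.00332). Over the alternatives the adjusted p, from edgeR, DESeq2 or limma, lay between 2.80e-05 and 0.0253. The exons of *CCND1* share 497 bases with those of *LTO1* on the opposite strand. *LTO1* had 425 to 606 counts per library where *CCND1* had 15220 to 20045, and reads of the shared bases cannot be told apart by strand.

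The other D-type cyclins are used by particular cell types beside or in place of cyclin D1. *CCND2* (ENSG00000118971, chromosome 12, 4273772 to 4305350) was low, with 9.74, 8.17 and 9.0 CPM in control ATII CM and 8.68, 8.18 and 7.72 CPM in 4-OHT ATII CM, and the groups overlapped. Its log2 fold change was -0.14 (standard error 0.0983, 95% interval -0.35 to 0.072, adjusted p = 0.534, edgeR), an estimate near that of *CCND1* but with an interval that includes no change. *CCND3* (ENSG00000112576, chromosome 6, 41934933 to 42050357) gave 91.2, 95.2 and 95.8 CPM in control ATII CM and 97.6, 95.3 and 94.5 CPM in 4-OHT ATII CM. These values overlapped as well, and the log2 fold change was 0.027 with a 95% interval from -0.053 to 0.11 (adjusted p = 0.787, edgeR).

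**Figure D1:**
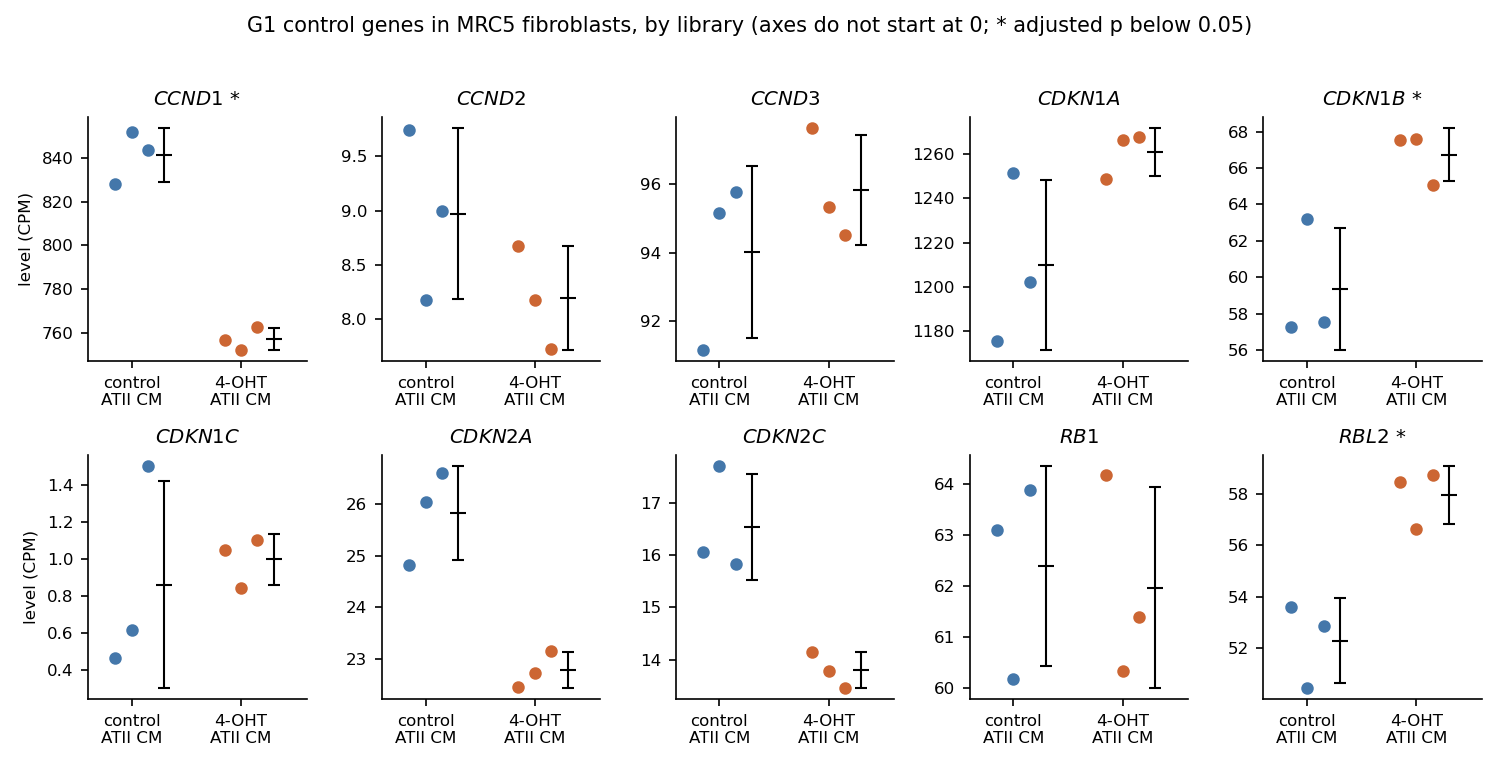
Level of each of the 10 G1 control genes in CPM (vertical axes, which do not start at 0) in the 3 control ATII CM libraries (blue) and the 3 4-OHT ATII CM libraries (orange), in order of replicate number, with the mean and SD of each group as black bars. *CCND1* lies between 828 and 852 CPM in control ATII CM and between 752 and 762 CPM in 4-OHT ATII CM, while *CDKN1B* and *RBL2* separate in the other direction.

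Among the CIP/KIP inhibitors, p27 is the one that holds CDK2 inactive in resting cells and is removed as cells approach S phase, mostly through degradation of the protein. *CDKN1B* (ENSG00000111276, chromosome 12, 12715058 to 12722371) was at 57.3, 63.2 and 57.5 CPM in control ATII CM and at 67.5, 67.6 and 65.0 CPM in 4-OHT ATII CM. The groups did not overlap, and the control library nearest to the 4-OHT libraries was replicate 2. Means were 59.3 ± 3.35 and 66.7 ± 1.46 CPM (SD, n = 3), with a log2 fold change of 0.17 (standard error 0.0442, 95% interval 0.077 to 0.27, adjusted p = 0.0315, edgeR). The call was lost in DESeq2 (adjusted p = 0.0538) and whenever any library other than control replicate 2 was left out, with edgeR adjusted p from 0.0747 without 4-OHT replicate 3 to 0.173 without control replicate 3. Without control replicate 2 the log2 fold change was 0.22 (adjusted p = 0.00132, edgeR).

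The p21 protein, encoded by *CDKN1A* (ENSG00000124762, chromosome 6, 36676460 to 36687339), is the CIP/KIP inhibitor induced in arrest after stress. Its levels of 1176, 1251 and 1202 CPM in control ATII CM and 1248, 1266 and 1268 CPM in 4-OHT ATII CM overlapped through a single pair, control replicate 2 and 4-OHT replicate 1. The log2 fold change was 0.060 (standard error 0.0287, 95% interval -0.0015 to 0.12, adjusted p = 0.302, edgeR). Leaving out control replicate 2 brought it to 0.085 with an adjusted p of 0.0263 in edgeR, the only setting of 16 in which this gene was called. *CDKN1C* (ENSG00000129757, chromosome 11, 2883213 to 2885773), which encodes p57, an imprinted inhibitor, had 10, 11 and 34 counts in the control libraries and 23, 21 and 29 counts in the 4-OHT libraries. Control replicate 3 exceeded every other library and the 2 other controls lay below them all, so that the groups overlapped. The log2 fold change of 0.18 had a 95% interval from -0.58 to 0.94 (adjusted p = 0.864, edgeR). Leaving out control replicate 3 moved the estimate to 0.88, and leaving out control replicate 1 turned it to -0.13.

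The INK4 proteins act on CDK4 and CDK6 alone. *CDKN2C* (ENSG00000123080, chromosome 1, 50960745 to 50974633), which encodes p18, was at 16.1, 17.7 and 15.8 CPM in control ATII CM and at 14.2, 13.8 and 13.5 CPM in 4-OHT ATII CM. Each 4-OHT library was lower than each control library, yet the log2 fold change of -0.26 (standard error 0.0735, 95% interval -0.41 to -0.10) had an adjusted p of 0.0527 in edgeR. It passed in 3 of 16 alternatives, limma-voom (adjusted p = 0.0479), a filter of at least 1 CPM in 3 libraries (0.0423) and a gene length offset (0.0386). *CDKN2A* (ENSG00000147889, chromosome 9, 21967753 to 21995301) is the locus of 2 proteins with separate first exons, p16 and p14ARF, whose reads the gene counts merge. It was at 24.8, 26.0 and 26.6 CPM in control ATII CM and at 22.5, 22.7 and 23.2 CPM in 4-OHT ATII CM, again without overlap. Its log2 fold change was -0.18 (standard error 0.0571, 95% interval -0.30 to -0.058, adjusted p = 0.0855, edgeR), and no alternative called it, with adjusted p from 0.0589 to 0.254 over edgeR, DESeq2 and limma. An antisense RNA at the locus, *CDKN2B-AS1*, shares 341 exon bases with *CDKN2A* and had 8 to 14 counts per library.

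Of the pocket proteins, p130 is the form that binds E2F4 in resting cells, and RB is present through the cycle. *RBL2* (ENSG00000103479, chromosome 16, 53433977 to 53491649) was at 53.6, 50.4 and 52.9 CPM in control ATII CM and at 58.5, 56.7 and 58.7 CPM in 4-OHT ATII CM. Every 4-OHT library lay above every control library. The means were 52.3 ± 1.65 and 57.9 ± 1.13 CPM (SD, n = 3), with a log2 fold change of 0.15 (standard error 0.0407, 95% interval 0.060 to 0.23, adjusted p = 0.0463, edgeR). This call stood close to the threshold and was lost in 11 of 16 alternatives, among them DESeq2 (adjusted p = 0.124), with log2 fold changes between 0.12 and 0.16 throughout. It was lost when any 1 of the 6 libraries was left out, with edgeR adjusted p from 0.0631 without control replicate 1 to 0.214 without 4-OHT replicate 3. *RBL2* shares 610 exon bases with *AKTIP* on the opposite strand, which had 330 to 492 counts per library and a log2 fold change of 0.039 (adjusted p = 0.848, edgeR). *RB1* (ENSG00000139687, chromosome 13, 48303726 to 48599436) gave 63.1, 60.2 and 63.9 CPM in control ATII CM and 64.2, 60.3 and 61.4 CPM in 4-OHT ATII CM. Its groups overlapped almost fully, and the log2 fold change of -0.012 had a 95% interval from -0.0997 to 0.075 (adjusted p = 0.931, edgeR).

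**Figure D2:**
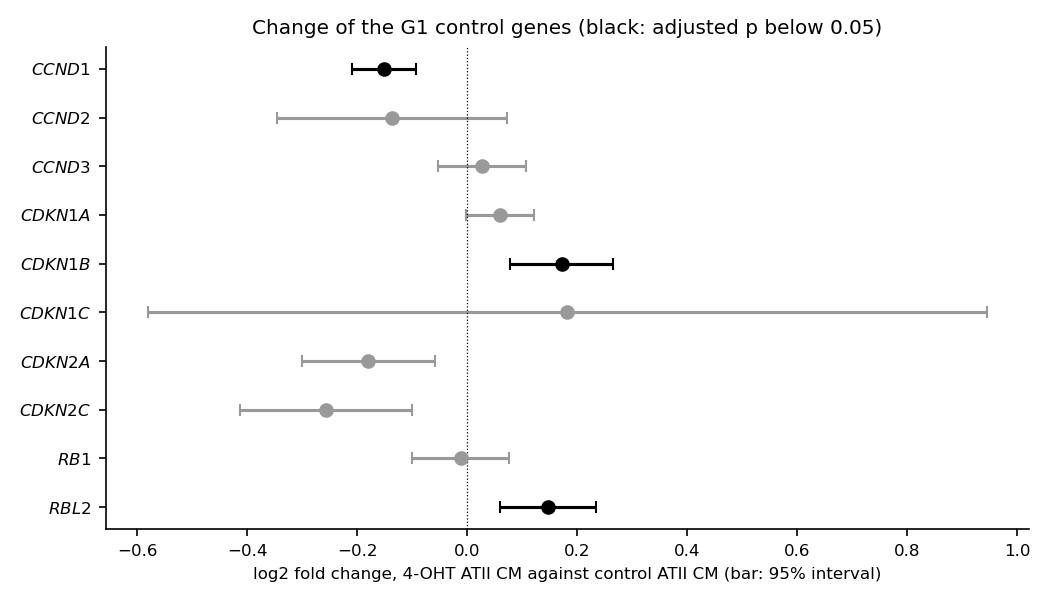
Log2 fold change of the 10 G1 control genes in 4-OHT ATII CM against control ATII CM (horizontal axis), with 95% intervals from edgeR as bars and genes with an adjusted p below 0.05 in black. *CDKN1B* (0.17) and *RBL2* (0.15) lie to the right of 0 and *CCND1* (-0.15) to the left, and the interval of *CDKN1C*, from -0.58 to 0.94, is the widest.

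**Figure D3:**
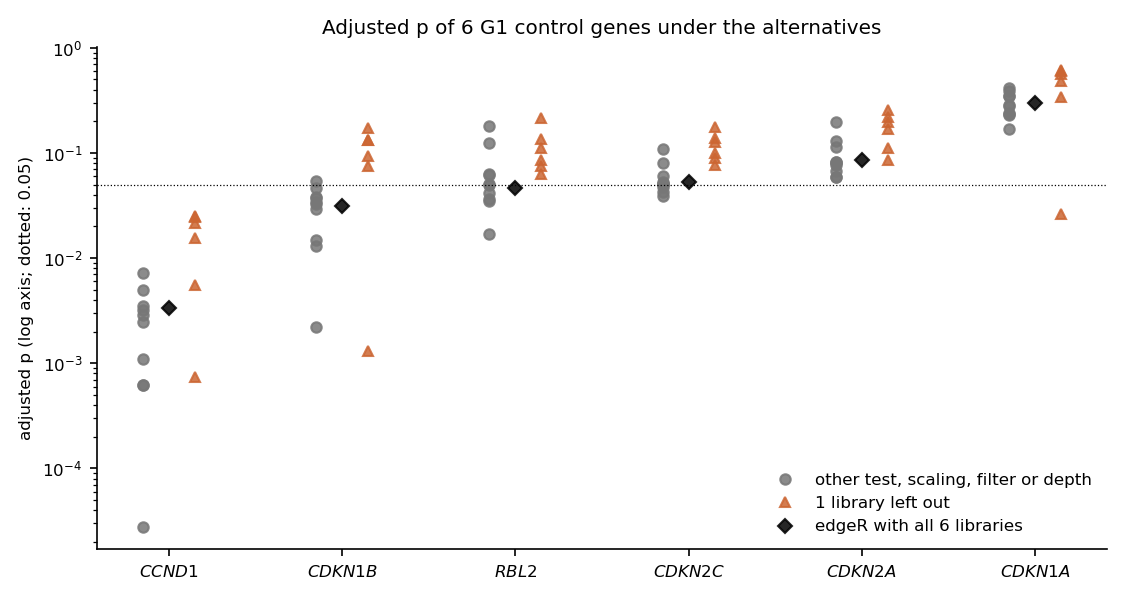
Adjusted p (vertical log axis) of the 6 members nearest to or past the threshold, in edgeR with all 6 libraries (diamonds), under other tests, scalings, filters or depths (circles) and with 1 library left out (triangles). All marks of *CCND1* lie below the dotted line at 0.05, the marks of *CDKN1B*, *RBL2* and *CDKN2C* lie on both sides, those of *CDKN2A* lie above it, and *CDKN1A* falls below it once, at 0.0263.

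Dividing CPM by the length of merged exons puts different genes on a common scale, but only roughly. Merged exons cover all annotated transcripts of a gene, so the length can exceed that of the transcripts present and lower the value. In CPM the order differs, since in control ATII CM the mean of *CCND3* was 94.0 and that of *CDKN1B* 59.3 CPM. *CDKN1A* had the highest mean level of the 10 genes, 405 CPM per kb over the 6 libraries, and ranked 56 among the 19072 genes tested. *CCND1* followed with 165 CPM per kb and rank 205, then *CDKN1B* with 22.4, *CCND3* with 16.4, *RB1* with 9.64 and *RBL2* with 7.53 CPM per kb. The lowest 4 were *CDKN2A* with 5.61, *CDKN2C* with 4.57, *CCND2* with 1.20 and *CDKN1C* with 0.375 CPM per kb. In this order the only neighbours whose ranges over the 6 libraries overlapped were *CDKN2A* and *CDKN2C*, and both groups are in each range.

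**Figure D4:**
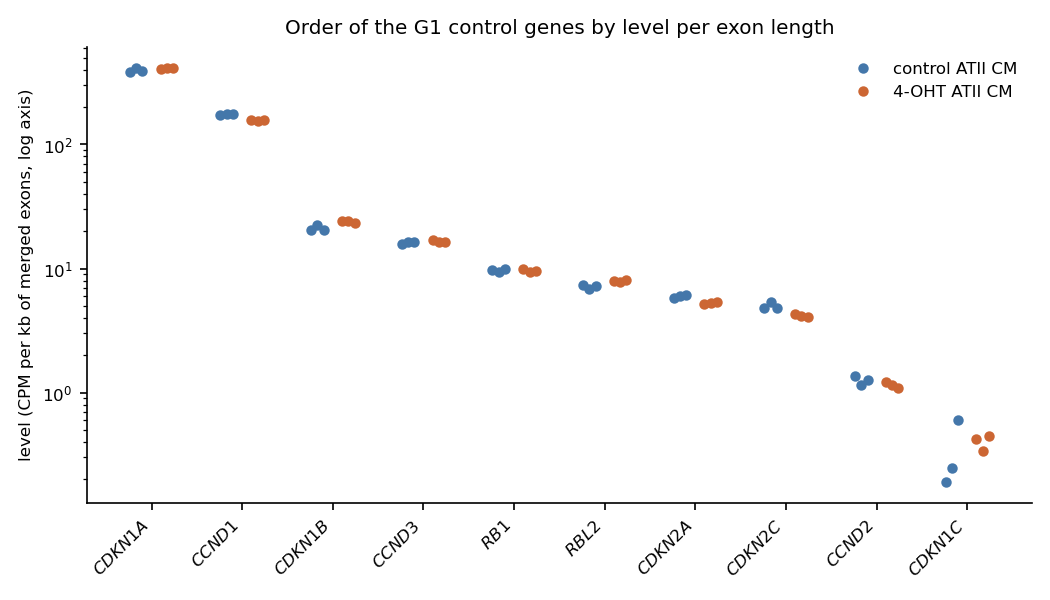
Level of the 10 G1 control genes in CPM per kb of merged exons (vertical log axis), ordered by their mean over 6 libraries, with 1 point per library (blue for control ATII CM, orange for 4-OHT ATII CM). Levels run from *CDKN1A* (405) to *CDKN1C* (0.375), and the points of neighbouring genes do not overlap in level except those of *CDKN2A* and *CDKN2C*.

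On the same per-length scale, *CCND1* made up 90.9, 91.0 and 90.8% of the summed D-type cyclin level in control ATII CM and 89.7, 89.9 and 90.1% in the libraries of 4-OHT ATII CM. The share of *CCND3* was 8.34, 8.46 and 8.58% in control ATII CM, against 9.63, 9.48 and 9.30% in 4-OHT ATII CM, and these shares were apart although the CPM of *CCND3* overlapped. Summed over the 3 genes, the level was 192 ± 2.83 CPM per kb (SD, n = 3) in control ATII CM and 174 ± 0.999 in 4-OHT ATII CM. These shares are a description and were not tested, and the higher share of *CCND3* restates the fall of *CCND1* within 1 sum.

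Within the CIP/KIP family, *CDKN1A* held 94.9% of the summed level in control ATII CM and 94.5% in 4-OHT ATII CM, as means of 3 libraries. *CDKN1B* accounted for 4.93 to 5.19% in the control libraries and for 5.27 to 5.54% in the 4-OHT libraries. Among the pocket proteins, with p107 (*RBL1*) included, the share of *RBL2* was 38.3 to 38.8% in control ATII CM and 40.5 to 42.1% in 4-OHT ATII CM. The *RB1* share was 51.8 to 52.6% in the control libraries and 49.96 to 50.4% in the 4-OHT libraries, while its log2 fold change was -0.012. A share falls when another member of the sum rises, so the *RB1* share adds nothing to the rise of *RBL2*. In the INK4 family, with *CDKN2B* and *CDKN2D* included, *CDKN2C* held 23.8 to 24.5% of the level in control ATII CM and 21.4 to 22.5% in 4-OHT ATII CM. On this per-length scale the mean shares of the 4 INK4 genes lay between 21.1 and 29.1% in control ATII CM. In CPM they were further apart there, with means of 25.8 CPM for *CDKN2A* and 6.51 CPM for *CDKN2D*.

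The INK4 inhibitors and pocket protein outside the 10 genes did not pass the test. *CDKN2B*, which encodes p15 and is known as a target of TGF-β, had a log2 fold change of -0.023 (adjusted p = 0.902, edgeR), with 20.9 to 21.3 CPM in control and 20.6 to 21.1 CPM in 4-OHT ATII CM. *CDKN2D*, which encodes p19, was at 0.0085 (adjusted p = 0.987) and *RBL1* at -0.11 (adjusted p = 0.618) in the same edgeR fit.

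Of 10 cyclins and kinases that act at the G1/S transition, 3 fell and none rose, with a median log2 fold change of -0.11. Among all genes tested, 2.76% were called lower and 2.95% higher. *CCNE2*, a partner of CDK2, was at 2.86, 2.97 and 3.44 CPM in control ATII CM and at 1.87, 1.56 and 1.75 CPM in 4-OHT ATII CM. On the log2 scale this was a fold change of -0.84 (standard error 0.174, adjusted p = 0.00836, edgeR). Its exons share 1629 bases with *INTS8* on the opposite strand, which had 721 to 1084 counts per library against 318 for *CCNE2* in all 6 libraries together. *CCNA2*, the cyclin of S phase, had a log2 fold change of -0.44 (adjusted p = 0.00329) and *CDK2* one of -0.24 (adjusted p = 0.0214, edgeR). Of 16 alternatives, 16 called *CCNA2*, 14 called *CCNE2* and 12 called *CDK2*. The call of *CDK2* was lost without control replicate 1, control replicate 3, 4-OHT replicate 2 or 4-OHT replicate 3. Without control replicate 3 or without 4-OHT replicate 2, 1 gene of this list was called lower.

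*CCNE1*, the other E-type cyclin, gave 4.68, 4.70 and 5.34 CPM in control ATII CM and 5.21, 4.81 and 5.44 CPM in 4-OHT ATII CM, which overlapped (log2 fold change 0.067, adjusted p = 0.850, edgeR). The kinase partners of the D-type cyclins did not pass in edgeR at the main filter with all 6 libraries. *CDK4* was at 76.3, 81.7 and 76.9 CPM in control ATII CM and at 74.3, 73.8 and 74.7 CPM in 4-OHT ATII CM, without overlap (log2 fold change -0.074, adjusted p = 0.359, edgeR). Its exons share 1369 bases with *TSPAN31* on the opposite strand, which had 399 to 553 counts per library where *CDK4* had 1460 to 1965. *CDK6* was at 112, 89.5 and 107 CPM in control ATII CM and at 93.1, 93.4 and 92.6 CPM in 4-OHT ATII CM (log2 fold change -0.15, adjusted p = 0.200, edgeR), and control replicate 2 was the library that made its groups overlap. *CDK6* was called lower without that library (log2 fold change -0.23, adjusted p = 0.000207, edgeR) and with no filter beyond 1 count, and without control replicate 1 its log2 fold change was -0.087 (adjusted p = 0.527). *CDK7*, named here after its values were seen, had the highest log2 fold change of the list, 0.90, and rests on 1 library, since it had 245 counts in 4-OHT replicate 3 and 22 to 85 in the other libraries (adjusted p = 0.455, edgeR). Without that library its log2 fold change turned to -0.52, and it was called higher in 1 of 16 alternatives, with no filter beyond 1 count (adjusted p = 1.31e-05, edgeR).

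Of the 8 E2F factors and 2 DP partners, 2 fell and 1 rose, beside 2.76% lower and 2.95% higher among all genes tested. *E2F1*, an activator of S phase genes that E2F itself induces, was at 10.3, 12.9 and 11.1 CPM in control ATII CM and at 9.32, 7.66 and 7.61 CPM in 4-OHT ATII CM (log2 fold change -0.48, adjusted p = 0.0139, edgeR). *E2F2*, a second activator, was lower still in relative terms, with a log2 fold change of -0.86 (adjusted p = 0.0358), but had 218 counts over the 6 libraries and was called in 8 of 16 alternatives. The DP gene *TFDP2* rose from 34.8, 34.2 and 34.4 CPM to 38.9, 38.1 and 39.1 CPM (log2 fold change 0.17, adjusted p = 0.0399, edgeR), a call kept in 7 of 16 alternatives. It was lost when any 1 library was left out, and the count of genes called lower was then 1 without control replicate 2 and 0 without 4-OHT replicate 2 or 4-OHT replicate 3.

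The E2F factors found with p130 in DREAM did not pass the test. *E2F4* was at 58.6, 60.7 and 59.8 CPM in control ATII CM and at 57.4, 58.5 and 58.7 CPM in 4-OHT ATII CM (log2 fold change -0.036, adjusted p = 0.706, edgeR), and *E2F5* had a log2 fold change of -0.18 (adjusted p = 0.526). *E2F3* lay at -0.0006 (adjusted p = 0.998) and *E2F6* at -0.15 (adjusted p = 0.362). The atypical repressors *E2F7* and *E2F8* had lower values in all 4-OHT libraries than in any control library, with log2 fold changes of -0.39 (adjusted p = 0.0683) and -0.82 (adjusted p = 0.0621) in edgeR. Of 16 alternatives, 4 called *E2F7* and 3 called *E2F8* lower.

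Among 8 genes of the MuvB complex and its partners, the 2 that fell were partners that join the complex outside G0 rather than subunits of its core: *FOXM1* (log2 fold change -0.50, adjusted p = 0.000232) and *MYBL2* (-0.38, adjusted p = 0.00717, edgeR), both called in 16 of 16 alternatives. The core genes *LIN9*, *LIN37*, *LIN52*, *LIN54* and *RBBP4*, and *DYRK1A*, the kinase that triggers DREAM assembly, did not pass, although *RBBP4* was called higher without control replicate 2. Of 15 genes for turnover of cyclin D and CIP/KIP proteins, 3 were called lower without control replicate 2 and 2 without 4-OHT replicate 1. With all 6 libraries 1 fell, beside 2.76% of all genes tested. That gene was *DTL*, the substrate receptor that marks p21 for degradation in S phase, at 9.42, 9.91 and 9.13 CPM in control ATII CM and 6.67, 6.33 and 5.36 CPM in 4-OHT ATII CM (log2 fold change -0.63, adjusted p = 0.00178, edgeR). *SKP2*, the receptor that marks p27, was at 45.2, 43.7 and 46.8 CPM in control ATII CM and at 51.6, 49.2 and 49.6 CPM in 4-OHT ATII CM, all above the controls (log2 fold change 0.15, adjusted p = 0.0658, edgeR), and passed in 2 of 16 alternatives, both with another count filter. *CKS1B*, whose protein helps SKP2 to bind p27, was at 19.95, 20.4 and 21.5 CPM in control ATII CM and at 18.8, 15.2 and 17.2 CPM in 4-OHT ATII CM, all below the controls (log2 fold change -0.28, adjusted p = 0.0510, edgeR). It was called lower in 9 of 16 alternatives and is named here after its values were seen.

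Genes known as targets of E2F or DREAM were also listed, and what changed them was not tested. Among all genes tested, 2.76% were called lower. Of 19 E2F targets of G1 and S phase, 13 fell and none rose, with a median log2 fold change of -0.34. In 18 of the 19 every 4-OHT library lay below every control library, as in 1982 of all 19072 genes tested. Without 4-OHT replicate 2 the number of E2F targets called lower was 8. The ribonucleotide reductase gene *RRM2* was at 30.0, 31.2 and 28.6 CPM in control ATII CM and at 21.0, 19.4 and 21.4 CPM in 4-OHT ATII CM (log2 fold change -0.54, adjusted p = 7.65e-05, edgeR). The thymidine kinase gene *TK1* had a log2 fold change of -0.44, and the replicative helicase genes *MCM7*, *MCM5* and *MCM4* had log2 fold changes of -0.34, -0.39 and -0.26. Of 12 G2 and M phase genes bound by DREAM, 11 fell and none rose, with a median of -0.52, among them the proliferation marker *MKI67* (-0.78), the kinase genes *AURKB* (-0.69), *BUB1* (-0.60) and *CDK1* (-0.48), and *CCNB1* (-0.53).

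**Figure D5:**
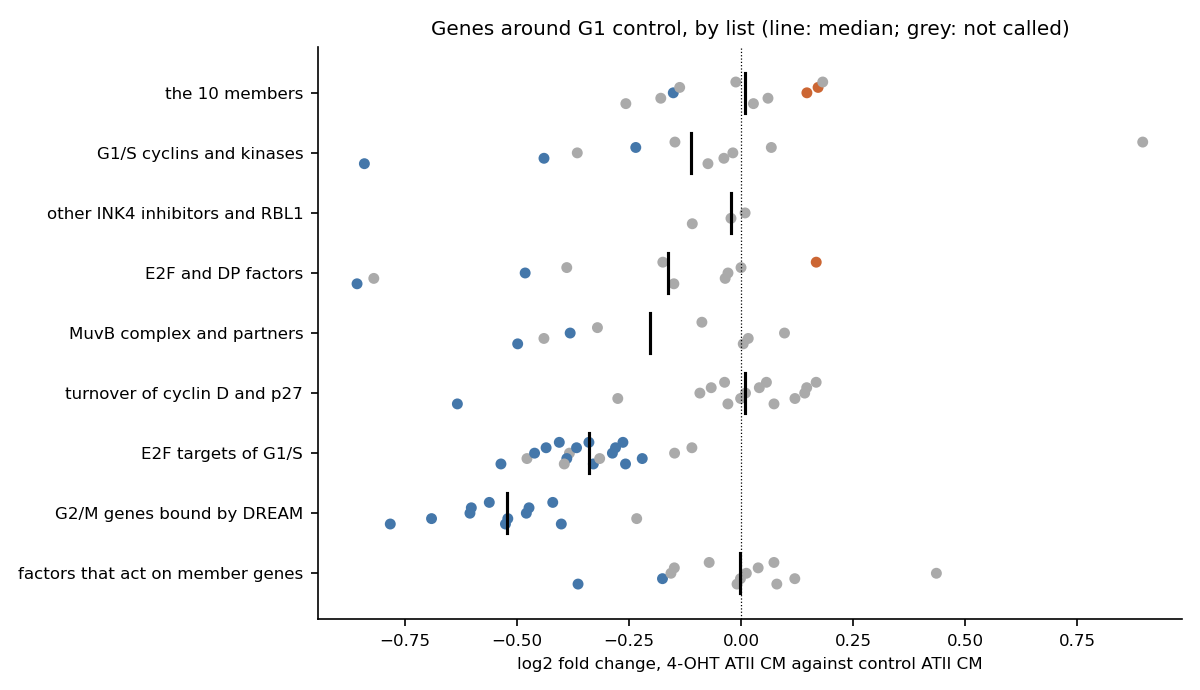
Log2 fold change in 4-OHT ATII CM against control ATII CM (horizontal axis) of each tested gene in the 10 members and in 8 lists of genes around G1 control, with called genes in blue (lower) or orange (higher), the others in grey and a black line at each list's median. Medians lie at 0.0074 for the 10 members, -0.34 for the E2F targets and -0.52 for the G2/M genes.

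These falls in S phase and mitotic RNA stood beside changes of -9.99% in *CCND1*, 12.6% in *CDKN1B* and 10.7% in *RBL2*. In bulk RNA, fewer cells in a phase of the cycle and less of a transcript per cell cannot be told apart, and the share of cells in each phase was not measured in these libraries. Among all genes tested 2.76% were called lower, and of 13 factors known to act on genes of this group, 2 fell. These were *MYC* (36.8, 38.0 and 36.6 CPM in control, 32.5, 32.5 and 33.5 CPM in 4-OHT ATII CM, log2 fold change -0.18, adjusted p = 0.0379, edgeR), which represses *CDKN1A* and *CDKN2B*, and the Polycomb methyltransferase gene *EZH2* (log2 fold change -0.36, adjusted p = 0.00723), which silences *CDKN2A*. The call for *MYC* was kept in 7 of 16 alternatives, and lost when any 1 library was left out, and that for *EZH2* in 16 of 16. The other 11, among them *FOXO3* (log2 fold change -0.0019), an activator of *CDKN1B*, did not pass.

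The genes whose log2 CPM followed *CCND1* most closely over the 6 libraries, of 9202 genes with a mean of at least 10 CPM, were *NUDT1* (Pearson's r = 0.999), *HMGA1* (0.997) and *KIF18B* (0.997), and 172 genes had an r above 0.95. For *CDKN1B* the closest were *NCK2* (0.996), *SCAPER* (0.994) and *CBLB* (0.993), with 89 genes above 0.95. These values describe 6 libraries that share the split into groups, and the coefficients contain that split.

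Library totals ranged from 17691849 to 26389449 counts, and the common dispersion between replicates corresponded to a coefficient of variation of 4.36%, which bears on the small changes above. Control replicate 2, the smallest library, differed most from the other controls, with chi-square values, divided by their degrees of freedom, of 5.27 and 6.03 against them where the other control pair gave 2.12, and with log ratios that fell with gene length (Spearman's rho of -0.306 across genes, against 0.285 and 0.148 in the other controls). Leaving it out brought *CDKN1A* past the threshold and gave *CDKN1B* its highest log2 fold change, 0.22. The call of *CDKN1B* was instead lost when any other library was left out. The part of control replicate 2 in these values was not tested beyond leaving it out and the gene length offset. Under that offset the edgeR adjusted p was 0.228 for *CDKN1A* and 0.0132 for *CDKN1B*. Summed fibroblast markers were at 47114 to 51870 CPM in control and 48637 to 49643 CPM in 4-OHT ATII CM. Of these 10 markers, 4 were called higher, *DCN* (log2 fold change 0.33), *LUM* (0.29), *PDGFRA* (0.22) and *COL3A1* (0.18), and 2 lower, *FN1* (-0.32, called in 13 of 16 alternatives and lost in DESeq2, without control replicate 3 and without 4-OHT replicate 2) and *VIM* (-0.10, called in 9 of 16 and lost, among others, without control replicate 3 and without any 1 of the 4-OHT libraries), and their part in the results above was not tested. The 12 alveolar epithelial markers together were at 11.7 to 13.6 CPM in control and 10.2 to 11.5 CPM in 4-OHT ATII CM, with *CDH1*, *ELF3*, *SFTPB*, *SFTPC*, *NKX2-1* and *LAMP3* under the count filter, and the 8 endothelial and leukocyte markers were at 0.938 to 1.58 and 1.38 to 2.39 CPM. Of the latter, *CD14*, a monocyte marker, had 12, 16 and 19 counts in the control libraries and 23, 38 and 49 in the 4-OHT libraries, with CPM that did not overlap (log2 fold change 0.97, adjusted p = 0.0597, edgeR), and was called higher in 7 of 15 alternatives. Its part in the results above was not tested.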

How the data were processed

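RNA-Seq of MRC5 cells in control ATII CM and 4-OHT ATII CM (3 libraries each, assigned from the sample labels) was analysed. Per the labels, the libraries were made with a kit that does not mark strand, and the submitters' processing notes name FastQC, MultiQC, Trim Galore, HISAT2 2.1.0, featureCounts 1.6.5 and GRCh38. The authors deposited raw counts per gene, 1 column per library, without normalization, beside the length of merged exons. The annotation release and the handling of reads that overlap several genes are not given in the sources used here. Counts of 45 identifiers listed on X and Y were added. Symbols came from GENCODE release 44, and 58207 of 58676 identifiers had one.

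Genes with at least 10 counts over the 6 libraries were tested with edgeR 4.0.16 (R 4.3.3), by the quasi-likelihood test after TMM scaling, in a model of group alone. Benjamini-Hochberg adjustment ran over 19072 genes, with a threshold of 0.05. Of these, 3306 had an unadjusted p below 0.05 and 1090 were called. Each standard error is the log2 fold change divided by the root of its F. CPM use TMM-scaled library sizes, and log2 CPM for correlations a prior count of 2. Library totals had a median of 22273931 counts.

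The alternatives were DESeq2 1.42.0 (the tool of the study), limma-voom (limma 3.58.1), RLE scaling, total counts, no filter beyond 1 count, at least 1 CPM in 3 libraries, a replicate block, a gene length offset with and without that block, thinning to the smallest total, and leaving out each library. Genes of the pathway lists were run under the same alternatives, and the counts per list under DESeq2, the block and left-out libraries. The tests were also run on simulated data. The 10 genes, the lists and the tests were chosen with earlier results of these data known. From each list the called genes were named, up to the 6 with the smallest p, with a fixed set named whether or not called, and results of some genes under this rule are left out here. For the called member with the smallest p in each direction, the 3 genes of highest Pearson correlation were named. Promoter windows were those of RefSeq on GRCh38.p14.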

Additional observations from a re-analysis of the deposited data

How the results depend on the processing

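Over 16 alternatives *CCND1*, *CCND2*, *CCND3* and *CDKN2A* kept their direction and side of the threshold. With 1 library left out, the difference in share between groups ran from -2.01 (without control replicate 2) to -0.495 percentage points (without control replicate 3) for *CDKN2A*, from 1.02 to 2.25 for *CDKN2B* and from 1.21 to 3.15 for *CDKN2D*, and it changed sign for *CCND2* and *CDKN1C*. The edgeR count of called genes was 1090, 954 in DESeq2 and 533 (without 4-OHT replicate 2) to 1530 (without control replicate 2) with 1 library left out, and 615 and 663 without 4-OHT replicate 3 and control replicate 3. The members called higher were 0 in DESeq2 and 1 with limma-voom, total counts, the block and thinning, and 0 to 2 with a library left out. Those called lower were 2 with limma-voom, the 1 CPM filter and the gene length offset, and 1 to 1 with a library left out. *CDKN1B* did not pass in DESeq2 (log2 fold change 0.17). *RBL2* did not pass in DESeq2 (0.14), limma-voom (0.15), total counts (0.14) or thinned libraries (0.12), and *CDKN2C* passed with limma-voom (-0.25), the 1 CPM filter (-0.26) and the length offset (-0.26). With 1 library left out, log2 fold changes were 0.037 to 0.085 for *CDKN1A*, 0.14 to 0.22 for *CDKN1B*, -0.13 to 0.88 for *CDKN1C*, -0.036 to 0.0051 for *RB1* and 0.12 to 0.16 for *RBL2*. Called lower were then 1 to 4 G1/S cyclins and kinases, 0 to 2 E2F and DP factors, 1 to 3 turnover genes, 8 to 14 E2F targets and 1 to 1 of the factors, and called higher 0 to 0 E2F and DP factors and 0 to 1 MuvB genes. DESeq2 called 0 E2F and DP factors higher and 1 lower, and 1 of the factors lower. The cause was not tested.

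No pairing of the libraries by replicate number was seen: deviations of same-numbered libraries correlated at -0.0145, -0.104 and -0.0932, and 0 libraries were closest to their own number. With 3 libraries in each group this check cannot exclude a pairing. With the replicate block 985 genes were called, *RBL2* did not pass (log2 fold change 0.15, adjusted p = 0.0507, edgeR), and 0 E2F and DP factors rose and 1 of the factors fell. DESeq2 gave no adjusted p for *CDKN1C*, which had 128 counts in all.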
